A study of Mus musculus with 22 samples.

Results

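Resting macrophages kept under interleukin-10 (IL-10) alone, with no microbial stimulus, were described after 12 h and 6 h of treatment, in 6 of the 22 libraries of the series. The libraries were chosen by their labels. K13 and K14 were macrophages given IL-10 for 12 h, K7 and K8 were given IL-10 for 6 h, and K1 and K2 were the untreated control of the same table. All 6 were RNA sequencing libraries of bone marrow-derived macrophages from Il10-/- C57BL/6 mice aged 6 to 12 weeks, which cannot make functional IL-10 of their own. Marrow of the femur and tibia was grown for 7 to 8 days in RPMI with 10% fetal calf serum and 30% L929 supernatant, a source of the macrophage growth factor M-CSF, and IL-10 was given at 100 ng/ml. The deleted allele, the sex of the mice, the harvest time of the control, and whether replicates were separate cultures or animals are not stated. So p-values measure only the spread between libraries. That spread was pooled over all 14 libraries of the same table, 8 of which were given LPS. A change against this control and a change with time in culture cannot be told apart.

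IL-10 binds a receptor made of IL10RA and IL10RB, whose associated kinases JAK1 and TYK2 phosphorylate the transcription factor STAT3. STAT3 enters the nucleus and binds palindromic sites in DNA, and Socs3, an inhibitor of cytokine receptor signalling, is among its best known targets. In macrophages the pathway is known for restraining the response to bacterial lipopolysaccharide (LPS), and most of that knowledge comes from cells given both. The libraries here ask what IL-10 does to cells that received nothing else.

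The promoters of a few genes that carry the results are shown first, as the 250 bases before the RefSeq transcription start (GRCm38.p6). Capitals mark the STAT palindrome TTCNNNGAA in Socs3, Fgl2 and Fcgr1, 3 genes that were higher with IL-10 at 12 h, and 2 adjacent CArG boxes, the motif of serum response factor, in Dusp5, which was lower. Each of these motifs is its own reverse complement.
Socs3, chr11:117969367-117969616, minus strand: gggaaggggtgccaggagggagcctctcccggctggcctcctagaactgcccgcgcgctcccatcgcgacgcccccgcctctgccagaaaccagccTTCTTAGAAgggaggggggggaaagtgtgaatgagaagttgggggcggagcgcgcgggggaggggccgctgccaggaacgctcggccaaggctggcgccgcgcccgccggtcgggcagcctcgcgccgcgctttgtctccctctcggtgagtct
Fgl2, chr5:21372423-21372672, plus strand: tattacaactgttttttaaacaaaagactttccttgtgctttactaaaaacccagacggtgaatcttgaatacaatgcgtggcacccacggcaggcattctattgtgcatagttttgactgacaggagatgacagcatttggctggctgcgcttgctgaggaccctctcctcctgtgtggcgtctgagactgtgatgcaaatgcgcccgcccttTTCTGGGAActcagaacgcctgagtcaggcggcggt
Fcgr1, chr3:96293970-96294219, minus strand: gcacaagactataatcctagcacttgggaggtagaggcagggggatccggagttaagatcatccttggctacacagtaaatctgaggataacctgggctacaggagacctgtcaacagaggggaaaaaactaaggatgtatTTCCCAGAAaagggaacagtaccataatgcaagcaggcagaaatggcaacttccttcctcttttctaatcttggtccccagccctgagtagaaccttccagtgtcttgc
Dusp5, chr19:53528895-53529144, plus strand: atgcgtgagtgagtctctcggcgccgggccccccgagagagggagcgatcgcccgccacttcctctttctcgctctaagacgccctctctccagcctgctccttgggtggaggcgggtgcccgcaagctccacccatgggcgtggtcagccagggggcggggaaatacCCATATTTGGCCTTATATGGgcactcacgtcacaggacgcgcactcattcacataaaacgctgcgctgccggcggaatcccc
The STAT palindrome began 154 bases before the start in Socs3, 36 in Fgl2 and 109 in Fcgr1, and the CArG boxes began 82 and 72 bases before the start in Dusp5. Of the 130 genes that rose at 12 h (below), 102 had a RefSeq promoter and 10 of these held the palindrome, as did 6 of the 53 falling genes with an entry. Among all 27025 genes with an entry, 8.13% held it. The antioxidant response element core TGACNNNGC, read on both strands, was in 8 of the 53 falling genes and 21 of the 102 rising ones, against 11.5% of all genes. The CArG box was in 1 falling gene and 4 rising ones, against 1.62% of all genes. A match is a description of these letters and not a site of binding.

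The reads recovered from the deposited values numbered 23866227 and 22452452 in K13 and K14, 18284925 and 25021931 in K7 and K8, and 15622553 and 26429009 in K1 and K2. Levels are given in normalized reads, of which 1 sequenced read made up between 0.588 and 0.937. Macrophage markers were high in every library: the 12 markers, all tested, summed to 368611 and 371386 at 12 h, 355250 and 416863 at 6 h and 391413 and 472982 in the control. Markers of T cells (6), NK cells (4), mast cells or basophils (5), fibroblasts (6) and erythroid cells (5) summed to at most 16 per library, and those of 6 dendritic cell genes to 20 to 37. Genes at 0 in all 6 libraries were 1 of 9 neutrophil genes (Ly6g) and 1 of 6 T cell genes (Cd3g). So were 2 of 6 fibroblast genes and 4 of 5 erythroid genes. The neutrophil list of 9 genes summed to 377 and 262 at 12 h, 384 and 431 at 6 h and 492 and 634 in the control, the B cell list of 5 to 59 to 102, the megakaryocyte list of 4 to 39 to 96 and the endothelial list of 5 to 488 to 720. Il10 itself gave 632 and 494 normalized reads at 12 h, 496 and 370.1 at 6 h and 195 and 454 in the control. Which part of the gene was deleted is not stated, so these reads check neither the genotype nor the labels.

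K13 carried a trace of the LPS response that the other IL-10 libraries lacked. Over the 50 genes most strongly raised by LPS (at least 50-fold over the control and at least 1000 normalized reads in all 8 LPS libraries), the excess of K13 over the control was a median 3.48% (interquartile range 3.29% to 3.72%) of the rise in macrophages given LPS and IL-10 for 6 h. It was 0.024% in K14, -0.11% in K7 and -0.058% in K8. All 50 genes were above the control mean in K13, 27 in K14, 12 in K7 and 14 in K8. The origin of this excess was not tested. Levels at 12 h are given for each library, and the calls of each list with and without K13. The control libraries also differed from each other with the GC content of the gene (Spearman's rho 0.80 across 12688 genes, which are not independent). The same difference had rho -0.56 between K13 and K14 and -0.49 between K7 and K8. K1 and K2 had the widest replicate difference, with an SD of 0.80 log2 units over genes, against 0.45 between K13 and K14 and 0.33 between K7 and K8.

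After 6 h, 8 genes were higher, with the largest changes in Socs3, Ltb4r1 and Il4ra, and no gene passed the test as lower. Of 12817 genes tested, 8 rose (0.0624%) at an adjusted p under 0.05 with limma, an empirical Bayes linear model, and 0 fell. In all, 428 genes had an unadjusted p under 0.05, edgeR called 10 higher and 0 lower, and DESeq2 called 38 higher and 4 lower. The replicates of the groups did not overlap for any of the 8, as was so for 27.2% of all genes tested. Since these are bulk samples, more RNA per cell and more cells of a kind cannot be told apart.

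Socs3 (ENSMUSG00000053113, chr11:117966079-117970047, minus strand), the feedback inhibitor of JAK-STAT signalling, had 1305 and 958 normalized reads at 12 h, 440.2 and 363 at 6 h and 52.5 and 18.0 in the control. Both 6 h libraries were several-fold above both controls, and both 12 h libraries above those, for a log2 change of 3.65 ± 0.40 at 6 h (adjusted p = 0.0095). Il4ra (chr7:125552120-125579474), the alpha chain of the receptors for IL-4 and IL-13, had 14015 and 14549.6 normalized reads at 12 h, 9334 and 6786 at 6 h and 1337 and 739 in the control, a change of 3.00 ± 0.36 at 6 h (adjusted p = 0.013). Ltb4r1 (chr14:55765962-55768494), the high-affinity receptor for leukotriene B4, was nearly silent in the control, with 39.0 and 44.0 normalized reads at 12 h, 35.1 and 26.5 at 6 h and 2.81 and 1.24 in the control. Its change at 6 h was 3.43 ± 0.39, and the 6 h and 12 h levels lay close together.

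Ednrb (chr14:103814625-103844402), the endothelin receptor type B, had 4886 and 4652 normalized reads at 12 h, 2166 and 1438 at 6 h and 192 and 322 in the control. No library of one group reached the range of another, and the 6 h change was 2.82 ± 0.28 (adjusted p = 0.0062). Ccl8 (chr11:82115185-82116799), a monocyte-attracting chemokine also known as MCP-2, gave 266 and 158 normalized reads at 12 h, 26.1 and 28.8 at 6 h and 3.75 and 1.86 in the control. It was barely above nothing in the control and changed by 2.95 ± 0.30 at 6 h. The smaller rises were in Ly6a, the surface protein Sca-1, in Kif3a, a kinesin-2 motor subunit, and in Cd5l, a secreted scavenger receptor family protein that protects macrophages from apoptosis. Ly6a had 441 and 301 normalized reads at 12 h, 154 and 141 at 6 h and 44.0 and 56.4 in the control. Kif3a had 3371 and 3109 normalized reads at 12 h, 1722 and 1233 at 6 h and 471 and 542 in the control. Cd5l had 2182 and 2133 normalized reads at 12 h, 1007 and 853 at 6 h and 435 and 360.0 in the control, and in all 3 genes both 6 h libraries lay above both controls and below both 12 h libraries. Their 6 h changes were 1.54 ± 0.22, 1.53 ± 0.19 and 1.23 ± 0.18, with limma adjusted p of 0.013 for Kif3a and 0.042 for Ly6a and Cd5l. Replicates did not overlap between 6 h and 12 h for 50.1% of all genes tested.

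These calls rested on both 6 h libraries: without K7 limma called 0 genes and without K8 it called 1, the remaining library then being assumed to vary like the other groups. With only IL-10 alone and the control in the fit it called 0.

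**Figure D1:**
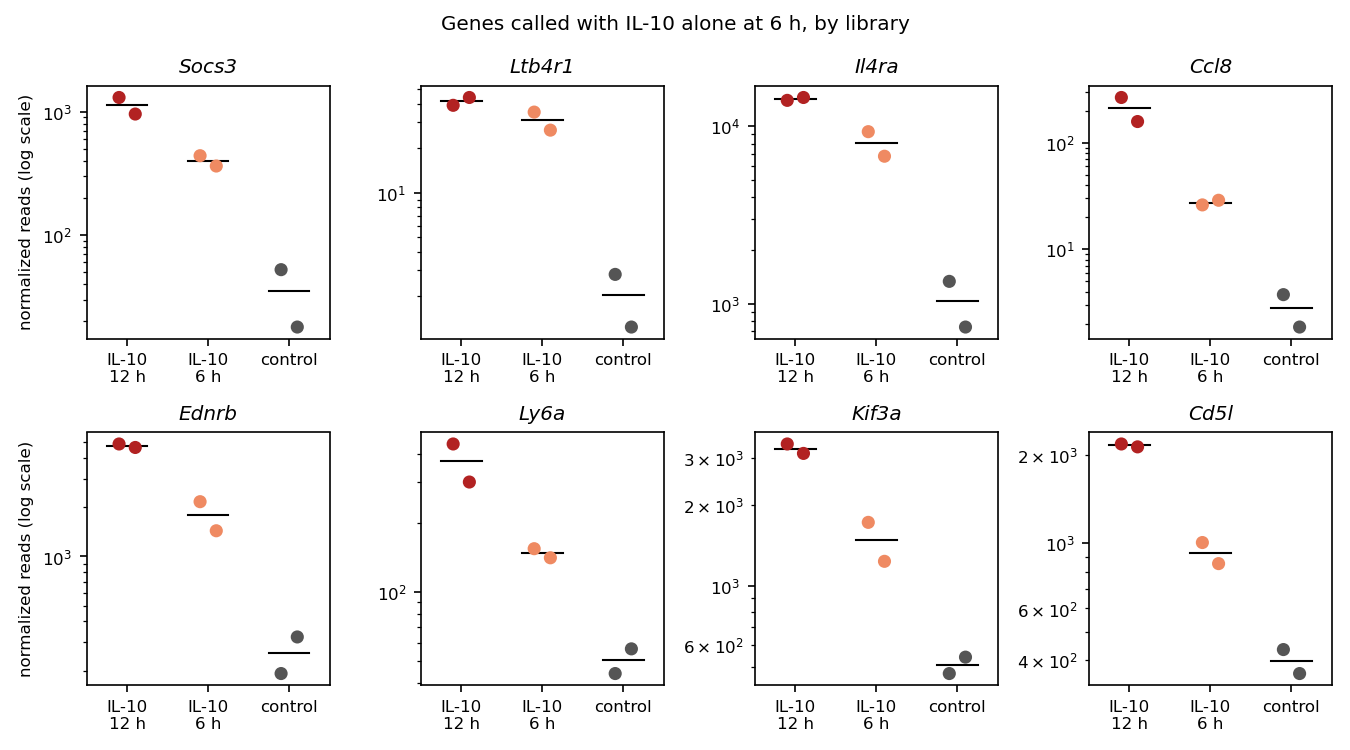
Normalized reads (log axis, scaled for each gene) in each library for the 8 genes called at 6 h, with IL-10 12 h on the left, IL-10 6 h in the middle and the control on the right. Points are single libraries and lines are group means of 2 libraries; in all 8 genes both 6 h points lie above both control points, as do both 12 h points.

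At 12 h, genes passed the test in both directions. Genes of the STAT3 and IL-10 response, Fc gamma receptors, chemokine receptors and lipid genes were among those that rose, and immediate early transcription factors, MAP kinase phosphatases and antioxidant enzymes among those that fell. limma called 200 genes (1.56%), 130 higher (1.01%) and 70 lower (0.546%), with median log2 changes of 1.63 and -1.52. edgeR called 156 higher and 94 lower, and DESeq2 331 higher and 249 lower. With only IL-10 alone and the control in the fit, limma called 25 higher and 7 lower. Of the rises, 45 exceeded 2 log2 units, as did 17 of the falls. All 200 had both 12 h libraries outside the range of both controls, as had 39.2% of all genes tested. Without K13, 24 of the 130 rises and 4 of the 70 falls were still called. Without K14, 67 and 20 were. All 200 kept their direction in both cases. Either omission leaves 1 library at 12 h, so a call lost without K13 does not by itself mark a change seen only in K13.

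The largest rise at 12 h was in Ccl8, at 5.81 ± 0.30 (adjusted p = 1.2e-05), which was 72.6-fold over the control mean in K13 and 43.2-fold in K14. Socs3 followed at 5.14 ± 0.40, 41.0-fold in K13 and 30.1-fold in K14. Cd38, an ectoenzyme that breaks down NAD, had 366 and 192 normalized reads at 12 h, 69.3 and 50.02 at 6 h and 4.68 and 16.7 in the control. Its change was 4.73 ± 0.48, and K13 stood well above K14. With the LPS-like share subtracted from K13, as described below, the change of Cd38 was 4.30. Fgl2, a fibrinogen-like protein with prothrombinase activity, had 3809 and 2612 normalized reads at 12 h, 994 and 743 at 6 h and 114 and 226 in the control, a change of 4.29 ± 0.36 (adjusted p = 0.00029). Ednrb rose by 4.26, Il4ra by 3.84 and Nxpe5 by 3.72, each within 1.5 times between K13 and K14.

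Saa3, an acute-phase serum amyloid gene, rose by 4.19 ± 0.70 but unevenly, with 9371 and 1053 normalized reads at 12 h, 504 and 519.6 at 6 h and 169 and 174 in the control. K13 was 54.4-fold over the control mean and K14 6.12-fold, and the log2 change was 2.61 with K14 as the only 12 h library. Saa3 had a mean of 241183 normalized reads with LPS and IL-10 at 6 h. Its change at 12 h was 2.59 once the LPS-like share was subtracted from K13, as described below. Whether the trace in K13 made the gap was not tested. Pdgfc, a platelet-derived growth factor, had 120.0 and 106 normalized reads at 12 h, 31.8 and 21.2 at 6 h and 11.2 and 13.6 in the control. Lifr, the receptor for leukemia inhibitory factor, had 692 and 611 normalized reads at 12 h, 337 and 235 at 6 h and 78.7 and 102 in the control. Selp, the adhesion molecule P-selectin, lay below the level set for the largest changes, with 112 and 53.9 normalized reads at 12 h, 30.2 and 18.2 at 6 h and 1.87 and 1.24 in the control, and had a log2 change of 4.95.

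Among the falls Egr1 was the largest. This immediate early zinc-finger factor had 8.30 and 13.8 normalized reads at 12 h, 29.3 and 126 at 6 h and 370.0 and 364 in the control, a change of -4.97 ± 0.77 (adjusted p = 0.0097). The 6 h libraries lay between the other groups and were far apart from each other. Fos, a subunit of the AP-1 factor, had 266 and 265 normalized reads at 12 h, 415 and 782 at 6 h and 1867 and 1475 in the control, and both 12 h libraries were almost equal, a change of -2.64 ± 0.39. Adgre4, an adhesion G protein-coupled receptor, had 10.2 and 8.54 normalized reads at 12 h, 20.4 and 48.8 at 6 h and 85.2 and 138 in the control. Nptx1, a pentraxin, had 79.8 and 79.5 normalized reads at 12 h, 234 and 396 at 6 h and 895 and 612 in the control. Dcstamp, needed for fusion of macrophages into giant cells and osteoclasts, had 30.0 and 22.3 normalized reads at 12 h, 69.3 and 101 at 6 h and 141 and 220.0 in the control, a change of -2.72 ± 0.52 (adjusted p = 0.029). Id1, an inhibitor of basic helix-loop-helix factors, and Hmga2, a chromatin architectural protein, fell by 2.49 and 2.24. Each of these 7 genes had both 12 h libraries below both 6 h libraries. Replicates did not overlap between the times for 50.1% of all genes tested, and limma called 0 genes lower at 12 h than at 6 h.

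**Figure D2:**
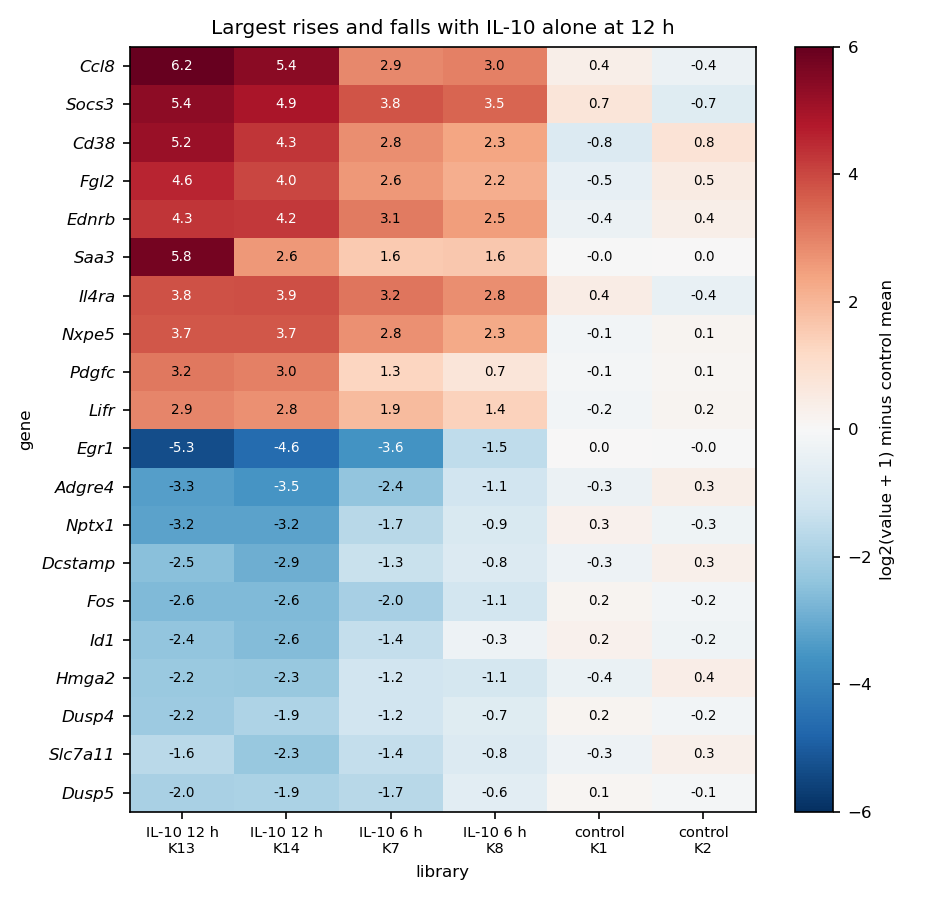
Log2(value + 1) in each library relative to the control mean for the 10 largest rises and 10 largest falls at 12 h among genes with a mean of at least 100 normalized reads in the higher group. Columns are single libraries, with IL-10 12 h left, IL-10 6 h in the middle and the control right; every row keeps its sign at 6 h, and Saa3 shows the widest gap between K13 and K14.

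The pathway of IL-10 itself was read from 29 genes known as targets of STAT3 or of IL-10. Like the other lists, this one was chosen with earlier results of these data known, so its counts are descriptions. At 12 h 10 of the 29 rose and 0 fell, against 1.01% and 0.546% of all genes tested. The change was above 0 in 26, against 6240 of all 12817 genes, with a median of 0.94 log2 units against -0.01. At 6 h 3 rose and the median was 0.60, against -0.04 over all genes. Besides Socs3, Il4ra and Ednrb the 10 included Stat3, Nfil3, Timp1, Fcgr1, Mrc1 and Ccr1. Stat3, the transcription factor of the pathway, had 3464 and 3339 normalized reads at 12 h, 3162 and 2526 at 6 h and 1289 and 1053 in the control. Its change was 1.54 ± 0.22 at 12 h (adjusted p = 0.0058) and 1.28 ± 0.22 at 6 h, where it did not pass (adjusted p = 0.096). Nfil3, a basic leucine zipper repressor, had 287 and 255 normalized reads at 12 h, 250.3 and 212 at 6 h and 143 and 122 in the control, a change of 1.03 ± 0.18. Timp1, an inhibitor of matrix metalloproteases, had 142 and 114 normalized reads at 12 h, 121 and 93.0 at 6 h and 32.8 and 37.2 in the control. Without K13, 3 of the 29 were called at 12 h.

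Of 18 genes of the receptor and JAK-STAT machinery, Stat3 and Socs3 rose and none fell, and without K13 Socs3 alone was called. Over all genes tested, 1.01% rose and 0.546% fell. Il10ra, the ligand-binding chain, had 1486 and 1469.7 normalized reads at 12 h, 1147 and 1324 at 6 h and 1538 and 1313 in the control. Il10rb, the shared second chain, had 3397 and 3322 normalized reads at 12 h, 3062 and 2923 at 6 h and 2809.8 and 3491 in the control. For both chains the 12 h libraries lay within the range of the control libraries. Jak3, a kinase of the common gamma chain receptors that was outside this list, rose by 1.95 ± 0.42 (adjusted p = 0.048, and 0.25 without K13). Bcl3 and Sbno2, which IL-10 is known to induce, were above the control in all 4 IL-10 libraries without passing. Bcl3 had 282 and 303 normalized reads at 12 h, 276 and 226 at 6 h and 160.2 and 63.2 in the control. Sbno2 had 1939 and 2309.7 normalized reads at 12 h, 1701 and 1649.9 at 6 h and 1055 and 311 in the control.

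Fc gamma receptors, which bind immunoglobulin G, gave 4 rises in 5 genes at 12 h, against 1.01% rises over all genes tested. None fell, and the median log2 change of the list was 1.41. Fcgr4 had 1462 and 849 normalized reads at 12 h, 361 and 292 at 6 h and 166 and 215 in the control, a change of 2.55 ± 0.31 (adjusted p = 0.0031). With the LPS-like share subtracted from K13, its change was 2.21. Fcgr2b, the inhibitory member, had 9466 and 6305 normalized reads at 12 h, 4197 and 3431 at 6 h and 2033 and 2812 in the control. Fcgr3 had 15054 and 14223 normalized reads at 12 h, 9949.9 and 8607 at 6 h and 5032 and 6019 in the control. Fcgr1, the high-affinity receptor, had 5999 and 4916 normalized reads at 12 h, 4317 and 3734 at 6 h and 2239 and 2271 in the control. In all 4 genes both 12 h libraries exceeded both 6 h libraries, and 50.1% of all genes tested did not overlap between the times. All 5 members had a log2 change above 0 at 6 h too, with 0 called there. Without K13, Fcgr4 alone was called (adjusted p = 0.041). Fcgrt, the neonatal Fc receptor, which was outside the list, had 1085 and 1299.6 normalized reads at 12 h, 519 and 459.6 at 6 h and 354 and 175 in the control, a change of 2.25 ± 0.32, with an adjusted p of 0.0062, and 0.054 without K13. Fcgr2b, Fcgr3 and Fcgr4 have similar sequences, and how reads shared by similar genes were counted is not stated.

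Of 13 chemokine receptors tested, 2 rose, Ccr1 among them, and 0 fell, and without K13 none was called. Ccr1, a receptor for inflammatory CC chemokines, had 6101 and 5342 normalized reads at 12 h, 3761 and 2736 at 6 h and 879 and 1922 in the control, a change of 2.13 ± 0.34 (adjusted p = 0.011). Cx3cr1, the fractalkine receptor, had 97.1 and 109 normalized reads at 12 h, 302 and 585 at 6 h and 1159 and 1178 in the control and did not pass (adjusted p = 0.079). Among 22 chemokines Ccl8 rose and Cxcl14 fell, and without K13 Ccl8 alone was called. Cxcl14 had 137 and 136 normalized reads at 12 h, 211 and 261 at 6 h and 341 and 247 in the control. The shares over all genes tested were 1.01% rises and 0.546% falls.

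Receptors and enzymes of adenosine and purine nucleotides gave 3 rises in 15 genes, against 1.01% rises over all genes tested. Besides Cd38 these were Adora3, the adenosine A3 receptor, and P2ry14, a receptor for UDP-glucose. Adora3 had 112 and 86.0 normalized reads at 12 h, 72.5 and 54.1 at 6 h and 25.3 and 21.1 in the control. P2ry14 had 202 and 170.1 normalized reads at 12 h, 78.3 and 68.3 at 6 h and 49.6 and 66.3 in the control. Their changes were 2.04 ± 0.32 and 1.67 ± 0.32. Without K13, 1 of the 3 calls was left, that of Cd38.

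Lipid genes gave a few rises, against 1.01% rises over all genes tested. Among 18 targets of the sterol-sensing LXR receptors 3 rose and 0 fell, namely Cd5l, Scd1 and the efferocytosis receptor Mertk, of which Mertk was not called without K13. Scd1, the stearoyl-CoA desaturase, had 2964 and 2796 normalized reads at 12 h, 1868 and 1346 at 6 h and 609.7 and 848 in the control, a change of 2.00 ± 0.21 (adjusted p = 0.0011), and it was still called without K13. Of 24 cholesterol synthesis genes, the log2 change of 23 was above 0 at 12 h and that of 24 at 6 h, with medians of 0.58 and 0.49. Over all 12817 genes tested, 6240 were above 0 at 12 h and 5776 at 6 h. In the list 2 rose at 12 h, namely Fdps and Lss, enzymes of the isoprenoid and sterol steps. Fdps had 2543 and 2735 normalized reads at 12 h, 2314 and 2115 at 6 h and 1357 and 1133 in the control. Lss had 1624 and 1581 normalized reads at 12 h, 1607 and 1403 at 6 h and 929.1 and 755 in the control. Neither was called without K13, while the list's median change was 0.62 with K13 as the only 12 h library and 0.62 with K14. Of 16 fatty acid synthesis genes, Scd1 and the acetyl-CoA synthetase gene Acss2 rose, and Scd1 alone was called without K13. Acss2 had 326 and 353 normalized reads at 12 h, 221 and 204 at 6 h and 122 and 144 in the control. Fabp5, a fatty acid binding protein outside the lists, had 9360.4 and 9714 normalized reads at 12 h, 5639 and 5100.5 at 6 h and 2690.0 and 2008 in the control.

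Uptake and tissue-remodelling genes passed in both directions, against 1.01% rises and 0.546% falls over all genes tested. Of 19 scavenger and efferocytosis receptors 2 rose, Mrc1 and Mertk, and 1 fell, Axl, a relative of Mertk. Mrc1, the mannose receptor, had 117133 and 101949 normalized reads at 12 h, 66471 and 53957 at 6 h and 28947 and 47463 in the control. Mertk had 1629 and 1517 normalized reads at 12 h, 1064 and 913 at 6 h and 776 and 1014 in the control. Axl had 236 and 187 normalized reads at 12 h, 330.1 and 334 at 6 h and 545 and 418 in the control, with both 12 h libraries below all others. Without K13 none of these 3 was called, nor without K14. Gas6, the ligand that Mertk and Axl share, had 13335 and 15581 normalized reads at 12 h, 8606 and 8688 at 6 h and 7679 and 3494 in the control and did not pass (adjusted p = 0.077). Among 17 matrix proteases and their partners, Timp1 and Mmp19 rose and Mmp9, the gelatinase B of osteoclasts and neutrophils, fell. Mmp9 had 208 and 204 normalized reads at 12 h, 333 and 533 at 6 h and 1005 and 559 in the control. None of these 3 was called without K13, and the median change of the list was 0.08 with K13 as the only 12 h library and -0.92 with K14. Dcstamp and Mmp9 were the 2 falls among 14 osteoclast and fusion genes, both lost without K13. In the complement list of 16, C4b rose and the integrin Itgax fell. C4b, which has a near-identical neighbour with which it may share reads, had 36.4 and 49.3 normalized reads at 12 h, 16.3 and 14.1 at 6 h and 2.81 and 4.34 in the control. Itgax had 476 and 443 normalized reads at 12 h, 596 and 696 at 6 h and 824 and 943 in the control, and was not called without K13. Of 13 genes of alternative activation Il4ra and Mrc1 rose and none fell, and Il4ra alone was called without K13. Among 23 C-type lectins and paired receptors, Clec4a3 rose by 1.65 and Treml4 fell by 2.05, and neither was called without K13. In the iron list of 18 the stress protein gene Nupr1 rose by 1.26, which was one of 4 rises lost once the LPS-like share was subtracted from K13, and it was not called without K13.

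Of 21 immediate early factors, 5 fell and 0 rose, against 0.546% and 1.01% of all genes tested, with a median log2 change of -0.35. Besides Egr1 and Fos these were Myc, the growth-promoting factor, Maff, a small Maf protein, and Fosl1. Myc had 238 and 305 normalized reads at 12 h, 449 and 631 at 6 h and 1069.6 and 754 in the control, a change of -1.74 ± 0.24 (limma adjusted p = 0.0058). Both its 12 h libraries were below both 6 h libraries, and 50.1% of all genes tested did not overlap between the times. Maff had 44.7 and 34.8 normalized reads at 12 h, 60.3 and 85.9 at 6 h and 127 and 115 in the control. Fosl1 had 5.11 and 3.94 normalized reads at 12 h, 12.2 and 11.2 at 6 h and 33.7 and 22.3 in the control. Dusp4 and Dusp5, phosphatases that switch off MAP kinases and are themselves induced by them, were the 2 falls among 12 feedback genes, with a median of -0.72. Dusp4 had 169.9 and 209 normalized reads at 12 h, 337 and 458 at 6 h and 856 and 677 in the control, a change of -2.01 ± 0.28 (adjusted p = 0.0062). Dusp5, whose promoter with its CArG boxes is shown above, had 34.5 and 36.1 normalized reads at 12 h, 42.4 and 87.1 at 6 h and 151 and 124 in the control. The calls of these 7 genes were lost without K13, and some of them were lost without K14. With K13 as the only 12 h library the median change of the 21 factors was -0.50, and with K14 it was -0.40. For the 12 feedback genes these medians were -0.77 and -0.68. K13 and K14 each lay below both control libraries in all 7 genes, as in all 70 called falls. In 39.2% of all genes tested the 12 h and control libraries did not overlap, in either direction.

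Targets of NRF2, the transcription factor of the antioxidant response, gave 6 falls and no rise among 20 genes, against 0.546% falls over all genes tested. The median of the list was -0.47. Slc7a11, the cystine transporter that feeds glutathione synthesis, had 73.4 and 46.0 normalized reads at 12 h, 84.0 and 129 at 6 h and 184 and 286 in the control, a change of -1.96 ± 0.34 (adjusted p = 0.017). Gclc and Gclm, the subunits of the enzyme that starts glutathione synthesis, also fell. Gclc had 587 and 607 normalized reads at 12 h, 824 and 887 at 6 h and 1043 and 1516 in the control. Gclm had 1058 and 1141 normalized reads at 12 h, 2039.5 and 1987 at 6 h and 2163 and 3211 in the control. Txnrd1, thioredoxin reductase, had 2843 and 2978 normalized reads at 12 h, 4734 and 5608 at 6 h and 7308 and 6657 in the control, a change of -1.26 ± 0.14 (adjusted p = 0.002), and was the only 1 of the 6 still called without K13. Srxn1, sulfiredoxin, and Abcc1, a glutathione conjugate exporter, fell by 1.19 and 0.87. Hmox1, the haem oxygenase often read as an NRF2 target, had 8675 and 10230.0 normalized reads at 12 h, 12755 and 12385 at 6 h and 10197 and 7060.1 in the control and did not pass (adjusted p = 0.87).

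Antigen presentation, arginine use and proliferation gave single calls or none, against 1.01% rises and 0.546% falls over all genes tested. H2-Aa, an MHC class II chain, had 51.7 and 51.2 normalized reads at 12 h, 94.6 and 94.7 at 6 h and 146 and 136 in the control and was the only one of 10 genes of class II presentation that fell, with none higher. Ass1, argininosuccinate synthetase, had 257 and 234 normalized reads at 12 h, 415 and 544 at 6 h and 782 and 509 in the control and was the 1 fall among 16 genes of nitric oxide and prostanoids. Neither was called without K13. Of 33 cell cycle genes limma called none and 5 had an unadjusted p under 0.05. Against 6240 of all 12817 genes tested, 3 of the 33 had a change above 0, and their median was -0.57. edgeR called 0 and DESeq2 3 of them, all lower. Ccnd1, cyclin D1, had 4130.1 and 4373 normalized reads at 12 h, 6749 and 8063 at 6 h and 10916 and 9986 in the control (adjusted p = 0.077). Against 6240 of all 12817 genes tested, 29 of 32 lysosome genes were above 0, with a median of 0.26. limma called none, with 3 at an unadjusted p under 0.05, edgeR 0 and DESeq2 2 higher. Glycolysis (24 genes, median -0.02), co-stimulation (10 genes, median -0.10) and the proinflammatory cytokines (20 genes) gave no call with limma or edgeR. They had 2, 1 and 1 genes at an unadjusted p under 0.05, and DESeq2 called 1 gene, of co-stimulation, higher. Of 22 negative regulators of Toll-like receptor signalling Socs3 was the only one.

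**Figure D3:**
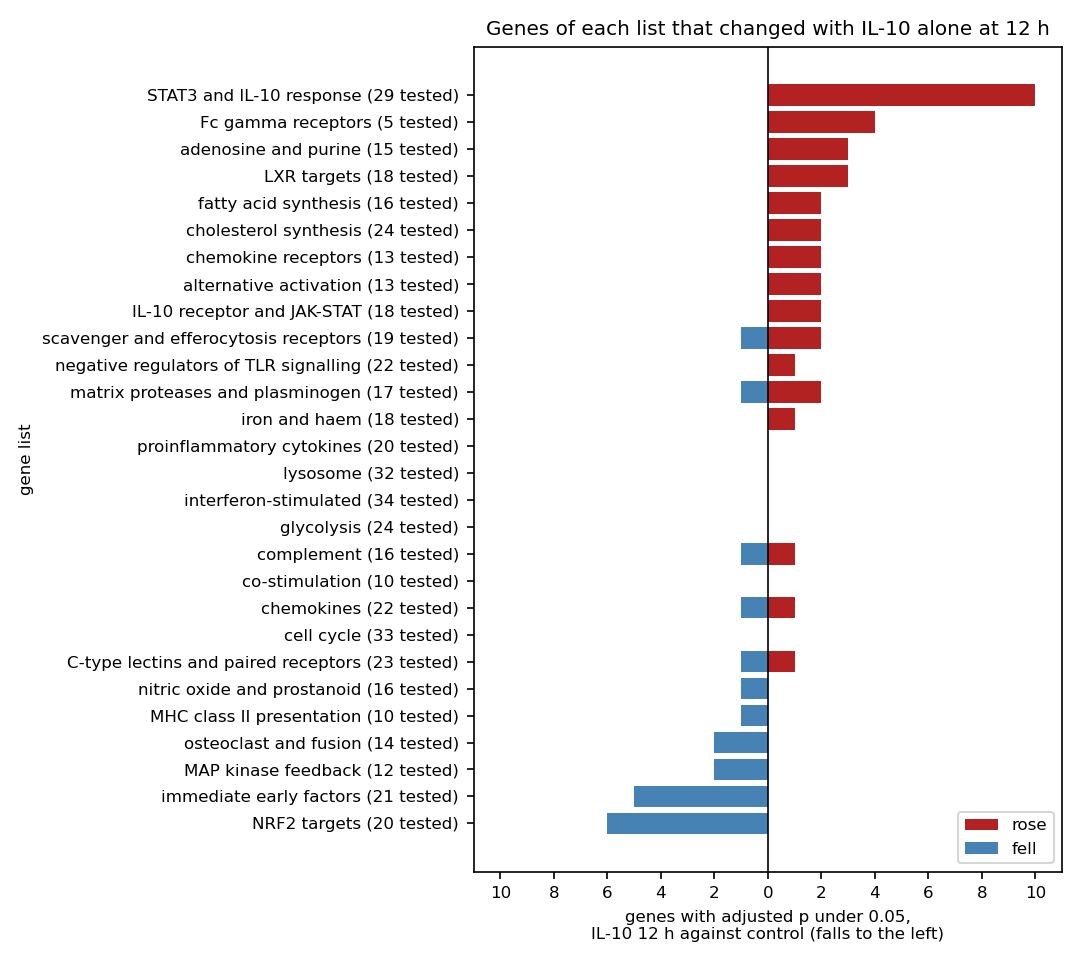
Number of genes of each list that rose (right) or fell (left) at 12 h against the control at an adjusted p under 0.05, with the number tested in brackets. The STAT3 and IL-10 response list has the most rises (10) and the NRF2 targets the most falls (6). Over all 12817 genes tested, 1.01% rose and 0.546% fell.

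Between the times, the effects were compared directly, with the control dropping out. Ccl8 was the only gene called, higher at 12 h than at 6 h by 2.86 ± 0.30 (adjusted p = 0.017); it was 0.0078% of the genes tested, against 50.1% whose replicates did not overlap between the times, 0 genes were lower, and 589 had an unadjusted p under 0.05. edgeR called 1 gene and DESeq2 74 (61 higher and 13 lower). Without K13 limma called 0, and without K14 60. For Socs3 the difference was 1.48 ± 0.40 (adjusted p = 0.61), for Ednrb 1.43 ± 0.28 (0.28), for Fgl2 1.87 ± 0.36 (0.28) and for Egr1 -2.40 ± 0.77 (0.75). For Ltb4r1 it was 0.43 ± 0.39 and for Stat3 0.27.

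K13 and K14 differed most in genes that LPS or interferon induces. Among 9209 genes with a mean of at least 100 normalized reads in these libraries, 90 were at least 2-fold higher in K13 and 4 at least 2-fold higher in K14. Among the widest gaps were those in Lipg, an endothelial-type lipase, in Nos2, the inducible nitric oxide synthase, and in Ifi205, an interferon-inducible gene. Lipg had 1431 and 27.6 normalized reads at 12 h against 10.3 and 15.5 in the control. Nos2 had 1750.3 and 44.0 normalized reads at 12 h against 10.3 and 16.1 in the control. Ifi205 had 1653 and 43.3 normalized reads at 12 h against 60.9 and 129.5 in the control. K14 was above both control libraries in Lipg and Nos2 and below both in Ifi205. The interferon-stimulated list of 34 genes summed to 68485 and 25547 in K13 and K14, 23199 and 23826 at 6 h and 25207 and 30699 in the control, and 33 of the 34 were higher in K13 than in K14. limma and edgeR called none of the 34 at 12 h, with 9 at an unadjusted p under 0.05, and DESeq2 called 7 higher. Their median excess over the control was 1.40 in K13 and -0.06 in K14, and without K14 limma called 11. Ccl5 had 1762 and 148 normalized reads at 12 h, 39.9 and 64.7 at 6 h and 41.2 and 42.1 in the control. Il1rn, the IL-1 receptor antagonist, had 10551 and 861 normalized reads at 12 h, 1594 and 1399.9 at 6 h and 1275 and 1934 in the control. Neither passed, and K14 lay below both controls in Il1rn. The proinflammatory cytokines had a median excess of 1.31 in K13 and 0.27 in K14. Steap4, a metalloreductase, had 139 reads over both 12 h libraries and 0 in the control, at least 40.2-fold higher (floor of 3 reads over the group, counting error only), but nearly all of them were in K13, with 85.6 and 3.28 normalized reads in K13 and K14.

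A share of 3.48% of the mean LPS+IL-10 6 h profile was subtracted from K13, with values held at 0 or above and rescaled. limma then called 133 rises and 101 falls at 12 h, including 126 of the 130 rises and 70 of the 70 falls. Of the rises 13 were more than 1.5 times higher in K13 than in K14: Casp12, Ccl8, Cd38, Fcgr2b, Fcgr4, Gbp7, Gm14461, Il2ra, Mxd1, Saa3, Selp, Thbs1 and Trim30c. In 0 of the 130 was K14 more than 1.5 times higher than K13. With GC trends removed from every library, 484 genes were higher and 384 lower at 12 h, among them 128 of the 130 rises and 70 of the 70 falls.

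**Figure D4:**
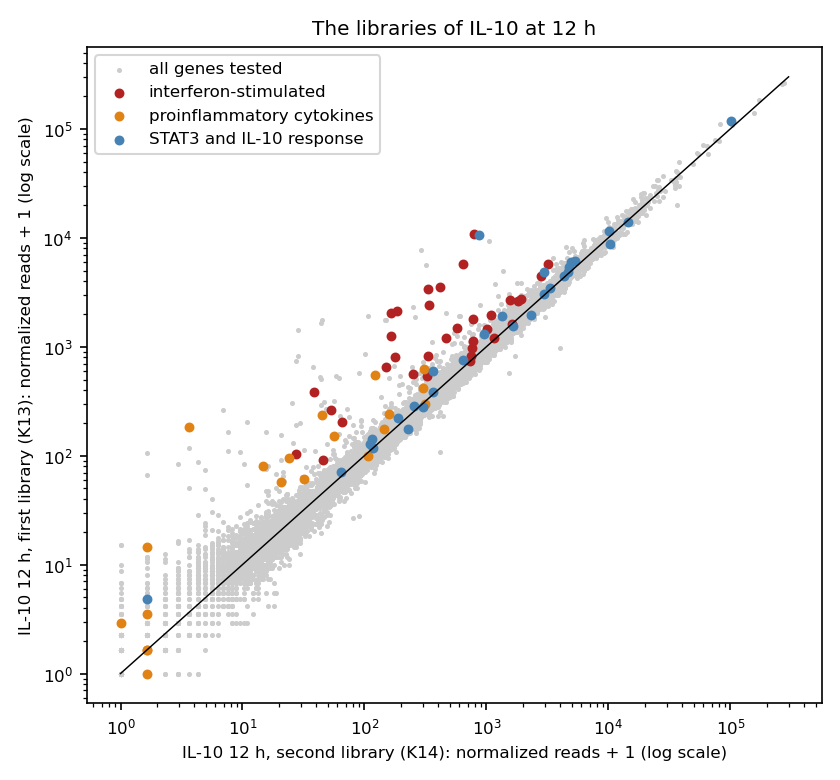
Normalized reads plus 1 in the IL-10 12 h libraries, K14 on the horizontal and K13 on the vertical axis (both log), for all genes tested, with 3 gene lists coloured and the line of equal values. Interferon-stimulated genes lie above the line in 33 of 34 cases, with a median log2 ratio of K13 over K14 of 1.26. STAT3 and IL-10 response genes lie above it in 23 of 29 cases, with a median of 0.17. Over all genes tested it was 6986 of 12817, with a median of 0.027.

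The 12 h calls were followed into other libraries. Those of 3 h shared no sample and no fit with the calls. Those given LPS for 12 h were in the same fit and set part of its spread, and K13 carried a trace of the LPS response. The comparison during LPS is therefore not independent of the calls. In the 3 h table, which has its own control and was normalized separately, IL-10 alone called 150 genes higher (1.22%) and 52 lower (0.421%) of 12338. Of the 130 genes that rose at 12 h, 122 were measured there: 106 (86.9%) were above 0, against 48.3% of all genes, 52 were called higher and 0 lower. Of the 70 falls, 58 (82.9%) were below 0, against 51.6% of all genes, and 3 were called lower: Myc, Adgre5 and Slc16a10. Socs3 changed by 2.79 ± 0.10 at 3 h, Ednrb by 2.56 ± 0.14, Il4ra by 2.38 ± 0.17 and Nxpe5 by 2.34 ± 0.14. Fcgr2b, Fcgr3, Fcgr4 and Fcgr1 were called at 3 h as well, with changes of 0.93, 0.77, 0.75 and 0.64. By contrast Cd5l (0.49), Lifr (0.51), Scd1 (0.14) and Egr1 (-0.52) did not pass at 3 h, and 0 of 20 NRF2 targets did. Whether 3 h and 12 h effects differ was not tested, since the tables were normalized apart.

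In macrophages given LPS, adding IL-10 for 12 h called 344 genes higher (2.68%) and 286 lower (2.23%) against LPS alone. Of the 130 rises with IL-10 alone, 111 (85.4%) were above 0 there, against 44.4% of all genes, and 39 were called higher. Aqp9, a water and glycerol channel, was the only one called lower, at -1.53 during LPS and 1.31 alone. Of the 70 falls 57 (81.4%) were below 0, against 55.6% of all genes, and 17 were called lower. Of the 12 h libraries given LPS and IL-10 together, the first stood apart from the second, with 46554 against 508 normalized reads of Il6. The libraries given LPS alone for 12 h had 14560 and 54961 of Il6, so the first of these was lower than the first given LPS and IL-10. Proinflammatory cytokines summed to 370672 and 16988 with LPS and IL-10, against 210054 and 586197 with LPS. Whether libraries were exchanged was not tested. Without the first library of LPS and IL-10 limma called 374 genes higher and 617 lower, without the second 51 and 35, without the first of LPS alone 380 and 107, and without the second 219 and 406. Without the first library of LPS and IL-10 the counts in the same direction were again 111 and 57. Ly6a, Timp1 and Adora3 rose in both settings, with changes of 3.03, 3.60 and 3.49 during LPS and 2.84, 1.84 and 2.04 alone. Srxn1 and Txnrd1 fell in both, by 1.18 and 0.92 during LPS.

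The effects with and without LPS were also tested against each other. The effect during LPS minus the effect alone was called higher for 19 genes (0.148%) and lower for 30 (0.234%) at 12 h, and higher for 571 (4.46%) and lower for 290 (2.26%) at 6 h. Of the 130 rises at 12 h, 15 were among the lower ones, and of the 70 falls 6 were among the higher ones. At 12 h the counts were 41 higher and 113 lower without the first library of LPS and IL-10, and 2 higher and 9 lower without the second. They were 64 higher and 25 lower without the first library of LPS alone, and 25 and 63 without the second. Without K13 they were 12 and 9, and without K14 9 and 54. The effect alone was also what chose the 200 genes, so these counts are descriptions.

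**Figure D5:**
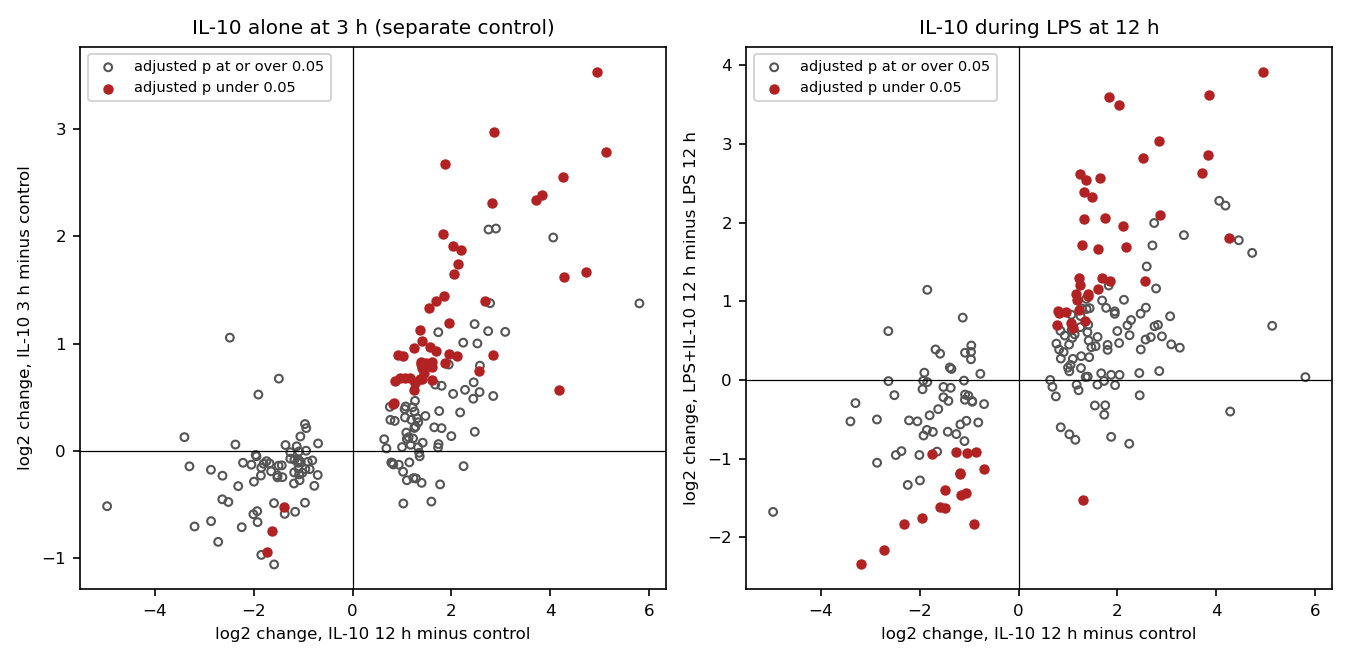
Log2 change at 12 h with IL-10 alone (horizontal axis) of the 200 genes called there, against their change at 3 h with IL-10 alone in the separate table (left) and their change with IL-10 during LPS at 12 h (right). Filled points passed the test on the vertical axis; most points have the same sign on both axes (106 of 122 and 111 of 130 rises, 58 of 70 and 57 of 70 falls).

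The genes whose log2 values ran most like those of Socs3 over the 6 libraries, among genes with a mean of at least 100, were Cyp4f16 (Pearson's r = 0.999), Svil (0.998), U2af1l4 (0.997), Il4ra (0.993) and Tbc1d9 (0.992). These are descriptions over 6 libraries in 3 groups. Of the 5 only Il4ra passed the test, and Cyp4f16 had 517 and 504 normalized reads at 12 h, 445 and 432 at 6 h and 332 and 277 in the control.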

How the data were processed

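Columns with on-column DNase digestion were used to purify RNA, and libraries were TruSeq, per the labels. TopHat2, DESeq2 and GRCm38 appear in the submitters' processing notes, with no versions. Which program counted reads, with what annotation and strand setting, is not stated in those notes or labels. Each deposited value is a signal: the reads of 1 gene in 1 library after the authors scaled them by a library size factor. There are 2 tables of 38293 genes, scaled apart. All values (100%) were whole multiples of the worth of 1 read, within 0.01 reads, so the reads were recovered. GENCODE M21 (GRCm38) gave coordinates for 36345 identifiers. Date conversion had altered 27 symbols of the 3 h data, so genes were joined by identifier.

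The test was limma 3.58.1 (R 4.3.3) on log2(value + 1), fitted to all 14 libraries of the 6 h and 12 h table (all 8 for 3 h), two-sided and adjusted by Benjamini-Hochberg, and calls were made under 0.05. Genes needed 10 normalized reads or more in 2 or more libraries. Changes are log2 ± SE, with the SE pooled over all groups, and the added 1 makes changes of low genes look smaller. limma was checked on simulated data, which held neither the GC trends nor the LPS-like share of K13 and so cannot speak for their effect. Alternatives used edgeR 4.0.16 and DESeq2 1.42.0 on recovered reads, and other pseudocounts, filters, scalings and sets of libraries.

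Named genes were all called genes where at most 20 were called, otherwise the 10 largest rises and falls with replicates apart and a mean of at least 100 normalized reads in the higher group. They also included up to 4 genes per list with the smallest p at 12 h, the 8 widest ratios each way between K13 and K14, and the 5 most like Socs3. Other genes named were chosen after their values were seen. The members and the 28 gene lists were chosen with earlier results of these data known. Whether replicate numbers pair the libraries is not stated, and no block was used. Promoter sequences are from RefSeq. Genes with near-identical copies may share reads. Values of some genes that the rule names are not reported here.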

Additional observations from a re-analysis of the deposited data

Results flagged for a closer look

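The effect of IL-10 alone on Ccl8 differed between the times, by 2.86 ± 0.30 log2 units at 12 h over 6 h (limma, adjusted p = 0.017). Ccl8 had 266 and 158 normalized reads at 12 h, 26.1 and 28.8 at 6 h and 3.75 and 1.86 in the control. The difference was 2.49 with K14 as the only 12 h library and 3.23 with K13. Of the 15 settings that left out libraries, 10 lost the call and 0 reversed the direction.

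Among the 8 genes called at 6 h and the 10 largest rises and falls at 12 h, there were 8 for which the effect of IL-10 during LPS differed from its effect alone by a test of the difference itself (limma, adjusted over all 12817 genes, with the counts given in the report). For Ccl8 the effect during LPS minus the effect alone was -5.77 ± 0.42 (adjusted p = 0.00047) with 12 h of IL-10 and -3.81 ± 0.42 (adjusted p = 0.0016) with 6 h. Ccl8 had 1735 and 1423 normalized reads with LPS and IL-10 at 12 h against 1336 and 1758 with LPS. Socs3 differed by -4.45 and -3.01 (adjusted p = 0.012 and 0.015), with 10270.5 and 14149.9 with LPS and IL-10 at 12 h against 6637 and 8439 with LPS, all far above the 1305 and 958 of IL-10 alone. Fgl2 differed by -4.69 and -3.76 (adjusted p = 0.0064 and 0.0038) and Cd5l by -2.36 and -1.85 (adjusted p = 0.0062 and 0.0033). At 12 h the difference was -2.13 for Kif3a, -2.45 for Ednrb and -2.74 for Lifr (adjusted p = 0.011, 0.033 and 0.033). Ednrb rose in both settings, with 2288 and 3217 normalized reads with LPS and IL-10 at 12 h against 755 and 799 with LPS. Lifr had 20.4 and 32.0 with LPS and IL-10 at 12 h against 26.5 and 20.98 with LPS. For Fos the difference was 3.26 (adjusted p = 0.033) with 12 h of IL-10 and 2.81 (adjusted p = 0.016) with 6 h. It fell with IL-10 alone at 12 h, and had 461 and 586 with LPS and IL-10 against 529.6 and 215 with LPS. The 12 h libraries with LPS stood apart as described in the report. Leaving out each 12 h library in turn kept all 8 directions. Ccl8, Socs3, Fgl2, Cd5l and Kif3a stayed under an adjusted p of 0.05 each time. Ednrb (0.0491 to 0.121), Lifr (0.0389 to 0.14) and Fos (0.0131 to 0.169) did not. No group here has enough libraries for a search for single outlying ones.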

How the results depend on the processing

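Main counts were 8 genes at 6 h, 200 at 12 h and 1 for 12 h against 6 h, given here in that order for settings that moved one by over 1.5 times. Fitting IL-10 alone and control only gave 0, 32 and 0; quantile normalization 13, 387 and 9; library weights 1, 53 and 655; DESeq2 42, 580 and 74; GC trends removed 25, 868 and 35. Leaving out the first library of each 12 h group gave 0, 32 and 0. Leaving out 1 library at a time gave 0 to 9, 31 to 286 and 0 to 60. The lowest at 12 h was without K13; omitting either IL-10 6 h library gave 124 there, either LPS 6 h library 125. Other pseudocounts, filters, totals and TMM factors stayed within 1.5 times (6 to 11, 141 to 227, 1), as did edgeR and the share subtracted from K13 (chosen after seeing the data). Where settings differ, the cause was not tested.

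Whether replicate numbers pair the libraries is not stated. Replicate differences correlated at -0.39 between control and IL-10 6 h, -0.37 between control and IL-10 12 h and 0.14 between the IL-10 groups. These differences also followed the GC content of the genes, so their correlations cannot decide on pairing. Over all 7 groups of the fit the correlations ran from -0.41 to 0.70, the highest between control and LPS+IL-10 6 h. The replicate block gave 6, 138 and 1, and with GC trends removed 17, 695 and 19. Fitted to these 6 libraries it gave 0, 0 and 0, and with the control's numbers crossed 0, 82 and 0, both chosen after seeing the data. Over the named genes that passed in the 3 comparisons, no direction was reversed in any setting. Of 56 named genes called at 12 h, 12 were called whichever libraries were left out. With 2 libraries a group and adjusted p-values borrowing spread from other groups, small changes were not detectable. Counting intervals and floors cover counting error only.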

Other observations

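The genes given here were called at 12 h, are single genes rather than tested groups, and were chosen after their values were seen. Il4, the type 2 cytokine, rose by 2.78 ± 0.42 (adjusted p = 0.0081, and 0.10 without K13), with 90.7 and 79.5 normalized reads at 12 h, 32.6 and 27.1 at 6 h and 8.43 and 15.5 in the control. It lies at chr11:53602982-53618669 on the minus strand, tail to tail with Kif3a at chr11:53567379-53601967 on the plus strand, which also rose. Without knowing strand use or the counting, reads that run past the end of Kif3a cannot be told apart from Il4 reads. Of the Fc receptor-like genes, Fcrls rose by 1.75 and Fcrl1 by 1.80, and both were still called without K13. Ifitm1 and Ifitm2, which encode membrane proteins that block virus entry, rose by 2.58 and 1.25, and Ifitm1 was still called without K13. Kmo, the kynurenine hydroxylase of tryptophan breakdown, rose by 2.82, with 193 and 199.6 normalized reads at 12 h, 85.6 and 44.1 at 6 h and 24.4 and 29.7 in the control.

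Among the falls, Jag1, a Notch ligand, had 249 and 244 normalized reads at 12 h, 471 and 576 at 6 h and 796 and 789 in the control, and Nes, the intermediate filament nestin, had 554 and 605 normalized reads at 12 h, 1173 and 1372 at 6 h and 1896 and 1989 in the control. Tmem26 had 8.30 and 6.57 normalized reads at 12 h, 11.4 and 18.2 at 6 h and 46.8 and 77.5 in the control. With Txnrd1 these were the 4 falls still called without K13. Of genes for amino acid and thyroid hormone transporters, Slc3a2 fell by 0.82, Slc7a8 by 1.09 and Slc16a10 by 1.39. The integrin chain Itgal fell by 1.499. H2-Q6 and H2-Q7, near-identical class I genes that may share reads, fell by 1.18 and 1.16. None of these 6 was called without K13.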
